A study of Rattus norvegicus with 20 samples.

Results

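Complement is a cascade of blood and tissue proteins that marks microbes and dying cells for removal, and 9 of its genes were followed here in heart cell cultures. They comprise the 3 chains of C1q (C1qa, C1qb and C1qc), the C1 proteases C1r and C1s, the central component C3, the receptors C3ar1 and C5ar1, and the C1 inhibitor gene Serping1. Each was looked for in the deposited read table by its KEGG short name, then by the gene of its RefSeq protein, then by its protein name. Of the 9 genes, 8 were found among the 15503 genes of the table, 7 by KEGG name and C1qc by protein name; C5ar1 was not analysed here.

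C1q is the recognition part of the classical pathway. It binds antibody, C-reactive protein and the surface of dying cells, and in most tissues its 3 chains are made by macrophages. C1r and C1s are the serine proteases bound to C1q, and are made by fibroblasts and other stromal cells as well as by the liver. C3 is the component on which the classical, lectin and alternative routes converge, and C3ar1 is the receptor for its fragment C3a, carried mainly by myeloid cells. Serping1 encodes C1 inhibitor, which inactivates C1r and C1s.

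The libraries came from cultures of neonatal rat cardiomyocytes sampled at 72 h, with 5 libraries in each of 4 groups. The cultures were given 100 nM histidine together with 1 µM doxorubicin (called "both" below), 1 µM doxorubicin, 100 nM histidine, or phosphate-buffered saline (PBS). Doxorubicin is an anthracycline cancer drug that damages heart muscle, and histidine is an amino acid. The labels give neither the exact age and strain of the animals nor any pooling. They do not say either whether the libraries of a group were separate cultures. A p-value reflects how far libraries scatter within groups, estimated over all 4 groups together, and that scatter could be technical.

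RNA was captured from whole cultures, so fewer cells of a type and less RNA per cell cannot be told apart. The cardiomyocyte label was checked against 13 measured cardiomyocyte markers, all of which had reads in every group. Their summed level was 81.4 ± 6.14 FPKM in both, 85.6 ± 6.97 FPKM in doxorubicin, 409 ± 17.4 FPKM in histidine and 418 ± 26.0 FPKM in PBS (SD, n = 5). FPKM is fragments adjusted for gene length and library depth, on which different genes can be compared. The 15 fibroblast markers summed to 10869 ± 1135 FPKM in both, 9168 ± 2019 in doxorubicin, 13439 ± 1479 in histidine and 14697 ± 578 in PBS. The 15 measured macrophage markers summed to 67.4 ± 3.70 FPKM in both, 77.4 ± 12.2 in doxorubicin, 1043 ± 85.1 in histidine and 1009 ± 23.3 in PBS. Fibroblast markers, mainly collagens, stood far above the cardiomyocyte markers. All 4 hepatocyte markers listed, Alb, Apoa1, Ttr and Serpina1, were not analysed here.

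Libraries held 53246205 to 83624651 counted reads. The first principal component of log2 levels, with 62.6% of the variance, separated the 10 libraries given doxorubicin from the 10 without it, and doxorubicin replicate 4 stood apart on the second, at 107.9 against -18.9 to 9 for the other libraries. Values below are CPM, reads per 1000000 reads of the library after its total was adjusted by the normalisation factor. Fold changes are log2 ± SE with the adjusted p of edgeR's quasi-likelihood test over 15449 genes, and a gene is said to have risen or fallen where that p was under 0.05.

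The bases that precede the annotated start of 5 of the genes are shown first, because C1qa, C1qb and C3ar1 moved one way in these cultures and C1r and C3 the other. RefSeq's promoter table (build GRCr8) held 5 of the 8 genes. Each line gives 250 bases before the start, 5′ to 3′ on the gene's strand. Capitals mark matches on either strand to 1 of 5 short motifs. The positions are chr5:154419934-154420183 (minus strand), chr5:154407828-154408077 (minus), chr4:157756531-157756780 (minus), chr4:159098763-159099012 (plus) and chr9:2201340-2201589 (minus).
C1qa: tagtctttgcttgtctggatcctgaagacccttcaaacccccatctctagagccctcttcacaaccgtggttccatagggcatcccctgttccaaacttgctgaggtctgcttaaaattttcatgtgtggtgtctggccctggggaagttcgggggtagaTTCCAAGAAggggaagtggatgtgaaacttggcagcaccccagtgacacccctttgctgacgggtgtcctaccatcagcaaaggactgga
C1qb: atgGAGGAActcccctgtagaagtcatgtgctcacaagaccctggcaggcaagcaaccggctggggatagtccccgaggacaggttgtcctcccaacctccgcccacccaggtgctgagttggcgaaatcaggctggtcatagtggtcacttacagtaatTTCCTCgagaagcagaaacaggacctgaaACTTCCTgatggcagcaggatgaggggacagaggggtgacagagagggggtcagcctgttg
C3ar1: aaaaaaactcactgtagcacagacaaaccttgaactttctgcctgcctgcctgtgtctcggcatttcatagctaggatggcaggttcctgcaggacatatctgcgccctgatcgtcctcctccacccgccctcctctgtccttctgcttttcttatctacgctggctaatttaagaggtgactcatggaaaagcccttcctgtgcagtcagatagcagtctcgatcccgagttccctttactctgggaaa
C1r: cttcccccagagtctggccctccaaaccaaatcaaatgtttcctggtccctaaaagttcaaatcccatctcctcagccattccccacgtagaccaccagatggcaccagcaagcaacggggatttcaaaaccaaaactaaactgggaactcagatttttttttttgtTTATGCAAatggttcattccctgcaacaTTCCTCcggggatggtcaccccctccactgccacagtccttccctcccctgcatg
C3: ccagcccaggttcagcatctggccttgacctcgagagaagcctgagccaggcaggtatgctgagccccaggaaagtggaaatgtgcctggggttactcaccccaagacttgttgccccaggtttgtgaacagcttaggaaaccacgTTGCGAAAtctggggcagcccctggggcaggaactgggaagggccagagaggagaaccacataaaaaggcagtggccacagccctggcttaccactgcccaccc

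The motifs were those of the myeloid factor PU.1 (AGGAAGT and GAGGAA), of STAT dimers (TTCNNNGAA), of interferon regulatory factors (the core of the interferon-stimulated response element) and of C/EBP factors (TTGCNNAA). Over windows of the same length before the start of all 33469 genes in the table, AGGAAGT was present in 7.08%, GAGGAA in 23.3%, TTCNNNGAA in 7.67%, the response element core in 3.41% and TTGCNNAA in 9.22%. C1qb held AGGAAGT on the minus strand, beginning 61 bases before the start, and GAGGAA at 247 bases on the plus strand and at 90 bases on the minus strand. C1qa held TTCNNNGAA at 90 bases. C1r held GAGGAA at 55 bases and TTGCNNAA at 83 bases, both on the minus strand, and C3 held TTGCNNAA at 104 bases. The C3ar1 window held none of the 5, and no 2 matches overlapped. These matches describe letters in the window only.

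The C1q genes lay side by side on the minus strand of chromosome 5 (build mRatBN7.2, per the deposited table). C1qb spanned chr5:149118846-149124407, C1qc chr5:149127415-149131017 and C1qa chr5:149133636-149136534. All 3 fell to below 1% of their level in cultures without the drug. In the drug-free groups they ranked among the well-expressed genes, with C1qa at 82.7 ± 8.34 FPKM in histidine and 88.0 ± 8.14 FPKM in PBS (SD, n = 5).

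C1qa, which encodes the A chain, had 0.475, 0.463, 0.249, 1.09 and 0.695 CPM in replicates 1 to 5 of both, against 85.7, 92.7, 93.1, 103 and 80.4 CPM in histidine. It had 0.847, 0.429, 0.112, 2.33 and 0.404 CPM in doxorubicin, against 95.5, 88.5, 112, 101 and 95.6 CPM in PBS. Every library with the drug lay far below every library without it. The fall was -7.25 ± 0.53 in both against histidine (adjusted p = 8.82e-10) and -6.87 ± 0.51 in doxorubicin against PBS (adjusted p = 1.34e-09). The drug groups still held 200 reads of C1qa in both and 287 in doxorubicin over their 5 libraries.

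C1qb, the B chain, reached the lowest level of the 8 genes. It had 0, 4, 0, 8 and 0 reads in the 5 libraries of both, against 2445, 1789, 2878, 3038 and 1693 reads in histidine. In doxorubicin it had 9, 15, 0, 44 and 8 reads, against 2573, 2565, 4298, 3536 and 2321 reads in PBS. Of the 10 libraries given the drug, 4 thus had no read of it. In CPM this was 0.0361 ± 0.0523 in both against 38.6 ± 6.86 in histidine, and 0.223 ± 0.223 in doxorubicin against 44.1 ± 8.17 in PBS (SD, n = 5). With 12 reads in all, the level in both was lower than in histidine by a factor of 1080 (95% counting error: 618 to 2091). The fitted log2 change in doxorubicin against PBS was -7.59 ± 0.52 (adjusted p = 3.23e-10) and in both against histidine -9.99 ± 0.63 (adjusted p = 9.03e-11).

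C1qc, the C chain, had 0.828, 0.314, 0.593, 0.701 and 0.293 CPM in both, against 72.8, 71.0, 85.2, 81.9 and 64.4 CPM in histidine. It had 0.515, 0.733, 0.196, 2.01 and 0.389 CPM in doxorubicin, against 81.1, 71.5, 98.8, 85.7 and 76.2 CPM in PBS. Its groups did not overlap, and it fell by 7.08 ± 0.45 on the log2 scale in both against histidine (adjusted p = 1.08e-10) and changed by -6.73 ± 0.44 in doxorubicin against PBS (adjusted p = 1.74e-10).

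Doxorubicin replicate 4, the library that stood apart in the whole data set, had the highest level of all 3 chains among the doxorubicin libraries. Without it the log2 change in doxorubicin against PBS was -7.80 for C1qa, -8.43 for C1qb and -7.52 for C1qc. Leaving out replicate 4 of both, which held 8 of the 12 C1qb reads there, gave -11.13 for C1qb in both against histidine.

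C3ar1, the C3a receptor on chromosome 4 (chr4:156075389-156084701, minus strand), fell by about as much as C1qa and C1qc, and by less than C1qb in both against histidine. It had 0.231, 0.463, 0.187, 0.315 and 0.679 CPM in both, against 77.3, 73.8, 61.0, 64.6 and 76.1 CPM in histidine. In doxorubicin it had 0.631, 0.286, 0.364, 0.875 and 0.461 CPM, against 79.8, 77.8, 54.8, 63.3 and 66.5 CPM in PBS. The groups were again fully separate. The change was -7.56 ± 0.31 in both against histidine (adjusted p = 1.73e-13) and -7.01 ± 0.30 in doxorubicin against PBS (adjusted p = 3.09e-13).

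**Figure D1:**
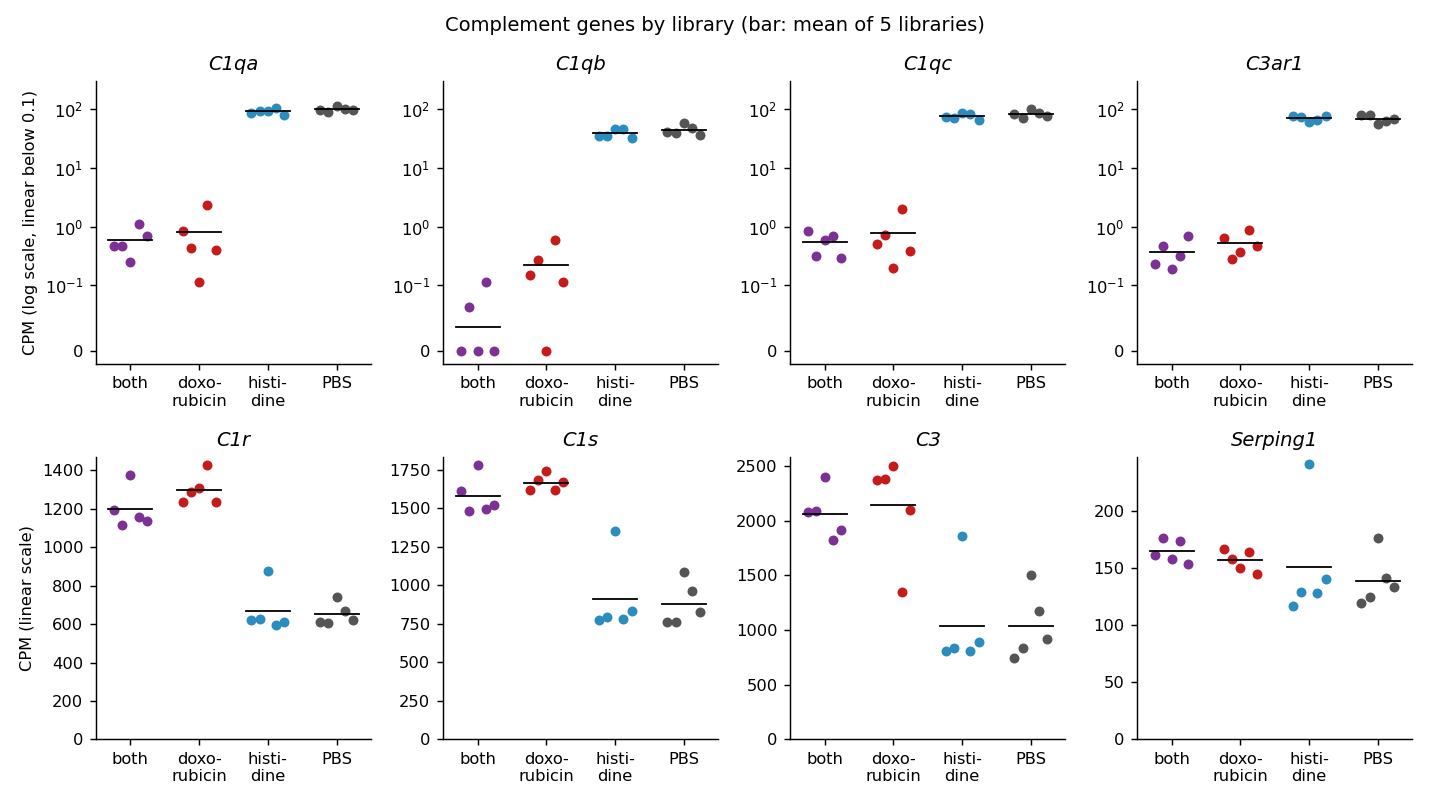
Each point is the CPM of 1 library and each bar the mean of 5 libraries, for the groups both, doxorubicin, histidine and PBS; the upper row has a log axis that is linear below 0.1 CPM and the lower row a linear axis from 0. The C1q genes and C3ar1 lie at or below 2.33 CPM in every library with doxorubicin and at 31.7 CPM or more in every library without it, while C1r and C1s are higher in every library with the drug than in any library without it.

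C1r and C1s moved in the opposite direction, with rises of 0.80 to 1.00 on the log2 scale. They are neighbours on chromosome 4, C1r on the plus strand at chr4:157412692-157423484 and C1s on the minus strand at chr4:157430117-157442303. The library protocol in the labels does not mark strand, so a read from an overlapping antisense transcript would be counted too.

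C1r had 1192, 1118, 1378, 1159 and 1137 CPM in both, against 624, 625, 875, 598 and 612 CPM in histidine. In doxorubicin it had 1233, 1288, 1307, 1429 and 1235 CPM, against 614, 608, 742, 667 and 624 CPM in PBS. The groups did not overlap. It rose by 0.84 ± 0.10 in both against histidine (adjusted p = 6.32e-07) and by 1.00 ± 0.10 in doxorubicin against PBS (adjusted p = 6.36e-08).

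C1s, the protease that cleaves C4 and C2 once C1r has activated it, had 1610, 1485, 1784, 1498 and 1524 CPM in both, against 777, 796, 1354, 781 and 837 CPM in histidine. It had 1620, 1681, 1743, 1618 and 1674 CPM in doxorubicin, against 766, 760, 1087, 963 and 829 CPM in PBS. These groups were separate as well, with rises of 0.80 ± 0.13 in both against histidine (adjusted p = 7.53e-05) and 0.92 ± 0.13 in doxorubicin against PBS (adjusted p = 1.36e-05).

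C3 (chr9:2087437-2114429, minus strand) rose by about as much but with far more spread. It had 2082, 2089, 2400, 1828 and 1914 CPM in both, against 811, 833, 1861, 808 and 894 CPM in histidine. In doxorubicin it had 2374, 2379, 2498, 1352 and 2097 CPM, against 749, 834, 1503, 1175 and 918 CPM in PBS. Replicate 3 of histidine lay above the lowest library of both, and replicate 3 of PBS above replicate 4 of doxorubicin, so the groups overlapped in both comparisons. The rise was 0.99 ± 0.23 in both against histidine (adjusted p = 0.00205) and 1.05 ± 0.23 in doxorubicin against PBS (adjusted p = 0.00117). It passed the test with any 1 library left out, with adjusted p-values up to 0.00768 in both against histidine and 0.00462 in doxorubicin against PBS.

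Serping1 (chr3:69842739-69852034, minus strand) did not pass the test in either comparison. It had 161, 176, 158, 173 and 154 CPM in both, against 117, 129, 241, 128 and 140 CPM in histidine. It had 166, 158, 150, 164 and 145 CPM in doxorubicin, against 119, 125, 176, 141 and 133 CPM in PBS. In both comparisons 4 of 5 drug-free libraries lay below every library with the drug, and replicate 3 lay above the highest of them. The log2 differences were 0.12 ± 0.15 in both against histidine (adjusted p = 0.569) and 0.17 ± 0.15 in doxorubicin against PBS (adjusted p = 0.373). Without histidine replicate 3 the difference in both against histidine was 0.35 (adjusted p = 0.00585), which passes. With replicate 3 of all 4 groups left out, an alternative chosen after the values were seen, Serping1 was higher by 0.36 in both against histidine (adjusted p = 0.00141) and by 0.28 in doxorubicin against PBS (adjusted p = 0.00833). The C1 inhibitor gene is therefore the 1 gene of the 8 whose call turned on a library.

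Of the 8 genes, 3 rose and 4 fell in doxorubicin against PBS, where 43.2% of all genes tested passed, 21.7% as higher and 21.5% as lower. The same count, 3 higher and 4 lower, was found in both against histidine, which shares no library with the first comparison and in which 40.2% of genes passed, 19.9% as higher and 20.3% as lower. CPM did not overlap between the groups for 6 of the 8 genes in each comparison, 2 as higher and 4 as lower. Over all genes that share was 31.1% in doxorubicin against PBS (13.6% higher, 17.5% lower) and 35.2% in both against histidine (16.5% higher, 18.7% lower). The median log2 change of all genes was 0.05 in doxorubicin against PBS and 0.01 in both against histidine.

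**Figure D2:**
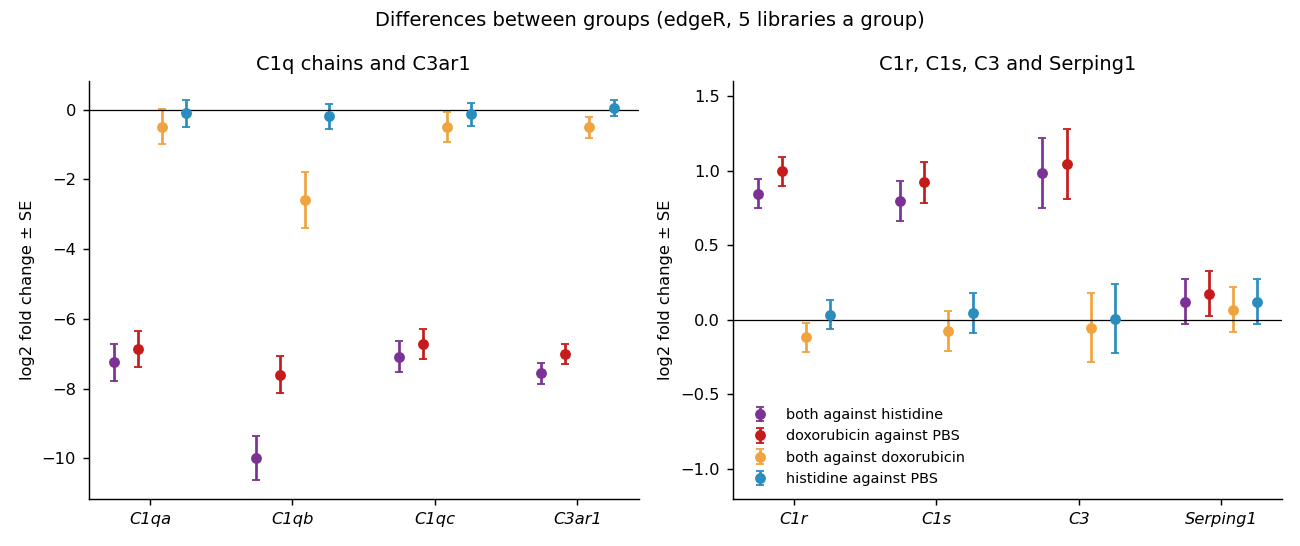
Log2 fold changes ± SE of the 8 genes in 4 comparisons, fitted with edgeR over 20 libraries; positive values are higher in the group named first. The C1q chains and C3ar1 sit between -6.73 and -9.99 in the comparisons with and without doxorubicin, C1r, C1s and C3 between 0.80 and 1.05, and all 8 genes lie closer to 0 in the comparisons with and without histidine, with C1qb in both against doxorubicin the farthest at -2.59.

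None of the 8 genes differed past the test with histidine, in cultures with or without the drug. In histidine against PBS the 8 log2 differences ran from -0.19 ± 0.36 for C1qb to 0.12 ± 0.15 for Serping1, all with an adjusted p of 1 and overlapping groups. No gene of the whole table passed there (0% of genes tested; 0.841% had groups that did not overlap, 0.395% higher and 0.447% lower), with 312 genes at an unadjusted p under 0.05 and 5 called by DESeq2. In both against doxorubicin the 8 differences ran from -2.59 ± 0.81 for C1qb to 0.07 ± 0.15 for Serping1, and again no gene of the table passed (0%; 1.06% had groups that did not overlap, 0.563% higher and 0.492% lower), with 1940 at an unadjusted p under 0.05 and 22 called by DESeq2. All libraries of these comparisons also enter the comparisons with and without doxorubicin above.

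C1qb gave the largest of these differences. It had 12 reads in both against 76 in doxorubicin, 0.158 times as many at equal depth (95% counting error: 0.0780 to 0.292), with an unadjusted p of 0.00463 and an adjusted p of 0.393. Doxorubicin replicate 4 held 44 of the 76 reads, and without it the log2 difference was -1.75; without replicate 4 of both, which held 8 of the 12, it was -3.73. C1qa, C1qc and C3ar1 differed in the same direction by -0.49 ± 0.49, -0.50 ± 0.43 and -0.51 ± 0.31, each with overlapping groups. For C1qa and C1qc the sign changed without doxorubicin replicate 4, to 0.44 and 0.30, so no direction can be read from them. The interaction, the difference between the drug's change with histidine and without it, passed for no gene (0%), with 1060 at an unadjusted p under 0.05 and 17 called by DESeq2; for C1qb it was -2.40 ± 0.90 (adjusted p = 0.631).

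The deposited FPKM of C1qa followed its reads differently in drug libraries. Relative to PBS, and scaled to the library total, 1 FPKM of C1qa stood for 1.15 to 1.93 times the reads in both (median 1.93) and 1.92 to 1.96 times in doxorubicin, against 0.995 to 1.01 times in histidine. For the other 7 genes this ratio stayed between 0.993 and 1.12. The fall of C1qa is thus larger in FPKM than in reads; the fold changes and tests above use reads. For the levels below, values from reads are also given, converted with the reads per FPKM of the PBS libraries, a choice made after these ratios were seen. The cause was not tested.

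On the per-length FPKM scale the order of the genes differed between cultures with and without the drug. In PBS the levels were 279 ± 44.5 FPKM for C1s, 217 ± 18.7 for C1r, 186 ± 54.9 for C3, 88.0 ± 8.14 for C1qa, 70.7 ± 11.5 for Serping1, 57.2 ± 7.53 for C1qc, 36.9 ± 6.85 for C1qb and 14.6 ± 2.27 for C3ar1. The libraries overlapped between neighbours in that order for all pairs but C3 and C1qa, C1qc and C1qb, and C1qb and C3ar1. Within each PBS library the order held, except that C3 stood above C1r in replicate 3 (271 against 249 FPKM). In doxorubicin C1s had 547 ± 45.1 FPKM, C1r 448 ± 17.6, C3 402 ± 103 and Serping1 82.4 ± 4.87, while C1qc had 0.514 ± 0.452, C1qa 0.375 ± 0.374, C1qb 0.179 ± 0.174 and C3ar1 0.107 ± 0.0417. From reads, C1qa stood at 0.725 ± 0.718 in doxorubicin and C1qc at 0.527 ± 0.451, so the order of these 2 turned, within their spread. The groups both and histidine held the same orders as doxorubicin and PBS, apart from neighbours within their spread.

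The 3 chains of C1q assemble in equal numbers, and their levels kept a steady proportion in the drug-free libraries. C1qa made up 49.2 ± 2.02% of the summed C1q FPKM in histidine and 48.4 ± 1.62% in PBS, C1qb 19.4 ± 1.38% in histidine and 20.2 ± 1.37% in PBS, and C1qc 31.3 ± 1.14% in histidine and 31.4 ± 0.42% in PBS (SD, n = 5). In the drug groups the C1qa share of FPKM was 45.4 ± 18.7% in both and 33.6 ± 9.08% in doxorubicin. From reads it was 55.2 ± 16.2% in both (35.2% to 75.4%) and 48.0 ± 10.1% in doxorubicin (34.4% to 61.1%), against 49.2 ± 2.02% in histidine and 48.5 ± 1.58% in PBS. The C1qb share from reads was 2.8 ± 4.0% in both (0% to 8.06%), against 19.4 ± 1.44% in histidine (17.8% to 21.2%). It was 11.2 ± 7.27% in doxorubicin (0% to 20.1%), against 20.1 ± 1.41% in PBS (18.3% to 22.1%). The C1qc share from reads was 42.0 ± 17.9% in both and 40.8 ± 11.1% in doxorubicin, against 31.4% in histidine and in PBS. Shares in the drug groups rest on few reads.

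C1r and C1s held their own balance in every group, with a C1s to C1r FPKM ratio of 1.25 ± 0.0242 in both, 1.22 ± 0.0859 in doxorubicin, 1.28 ± 0.116 in histidine and 1.28 ± 0.0978 in PBS. Set against the C1q sum, C1r and C1s together had a median ratio from reads of 1045 in both (554 to 1617) and 861 in doxorubicin (249 to 4187), against 2.90 in histidine (2.38 to 3.99) and 2.76 in PBS (2.54 to 2.79). From the deposited FPKM the medians were 1180 in both and 1105 in doxorubicin, against 2.91 in histidine and 2.77 in PBS. Their ratio to Serping1, the gene of their inhibitor, was 10.8 ± 1.31 in both and 12.1 ± 0.826 in doxorubicin, against 6.80 ± 0.647 in histidine and 7.06 ± 0.333 in PBS. That last ratio did not overlap between the groups in either comparison: the lowest library was at 9.44 in both and 10.9 in doxorubicin, and the highest at 7.66 in histidine and 7.41 in PBS. No test was run on these ratios.

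Markers of macrophages moved with C1q and C3ar1. All 15 measured of 16 listed markers fell in both comparisons. Of all genes tested, 20.3% fell in both against histidine and 21.5% in doxorubicin against PBS. The median log2 change of the 15 markers was -5.95 in both against histidine and -5.45 in doxorubicin against PBS. Their summed CPM ranged from 169 to 194 in both and from 174 to 268 in doxorubicin, against 2427 to 3057 in histidine and 2464 to 2526 in PBS, and none of the 15 was at 0 reads in any group. The highest value among drug libraries, 268, was again that of doxorubicin replicate 4.

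The share of the drug-free level that remained can be set side by side. In doxorubicin against PBS the C1q genes kept 0.837% (C1qa), 0.506% (C1qb) and 0.931% (C1qc), and C3ar1 0.765%. The 15 markers kept between 0.237% and 42.9%, with a median of 2.29%, and only 1 of them, the chemokine receptor gene Cx3cr1, kept less than any of the 4 genes. The colony-stimulating factor receptor gene Csf1r kept 1.23% and the pan-leukocyte gene Ptprc 1.16%, whereas Cd14 kept 31.2% and Fcer1g 42.9%. In both against histidine C1qa kept 0.652%, C1qb 0.0937%, C1qc 0.727% and C3ar1 0.532%, beside a marker median of 1.61% and range of 0.393% to 36.8%. Summed C1q CPM was 0.460% to 0.983% of summed macrophage marker CPM in both and 0.163% to 1.84% in doxorubicin. In histidine it was 6.96% to 9.47% and in PBS 8.05% to 10.7%. Most of the marker sum in the drug groups came from Fcer1g and Cd14, the markers that kept the most. In both, Fcer1g had 123 CPM and Cd14 20.5 CPM of a mean sum of 181 CPM. In doxorubicin they had 138 and 23.0 CPM of 204 CPM. The share in the drug groups therefore follows these genes more than the other markers. The part of the macrophage markers' fall in the C1q and C3ar1 values was not tested.

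Markers of fibroblasts did not move together with C1r, C1s and C3. Of 15 measured, 1 rose and 4 fell in both against histidine (median log2 change 0.16), and 2 rose and 5 fell in doxorubicin against PBS (median -0.08). Over all genes tested 40.2% passed in both against histidine and 43.2% in doxorubicin against PBS. The collagen gene Col1a1 changed by -0.42 ± 0.13 in both against histidine (adjusted p = 0.0129) and by -0.79 ± 0.13 in doxorubicin against PBS (adjusted p = 5.53e-05). Dcn, a proteoglycan gene, was the highest riser in doxorubicin against PBS at 0.93 ± 0.19 (adjusted p = 0.00058), with 0.43 ± 0.19 in both against histidine (adjusted p = 0.0821). All 13 measured cardiomyocyte markers fell in both comparisons, with medians of -2.31 in both against histidine and -2.30 in doxorubicin against PBS. CPM are shares of a library, and the part of these falls in the rise of C1r, C1s and C3 was not tested.

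**Figure D3:**
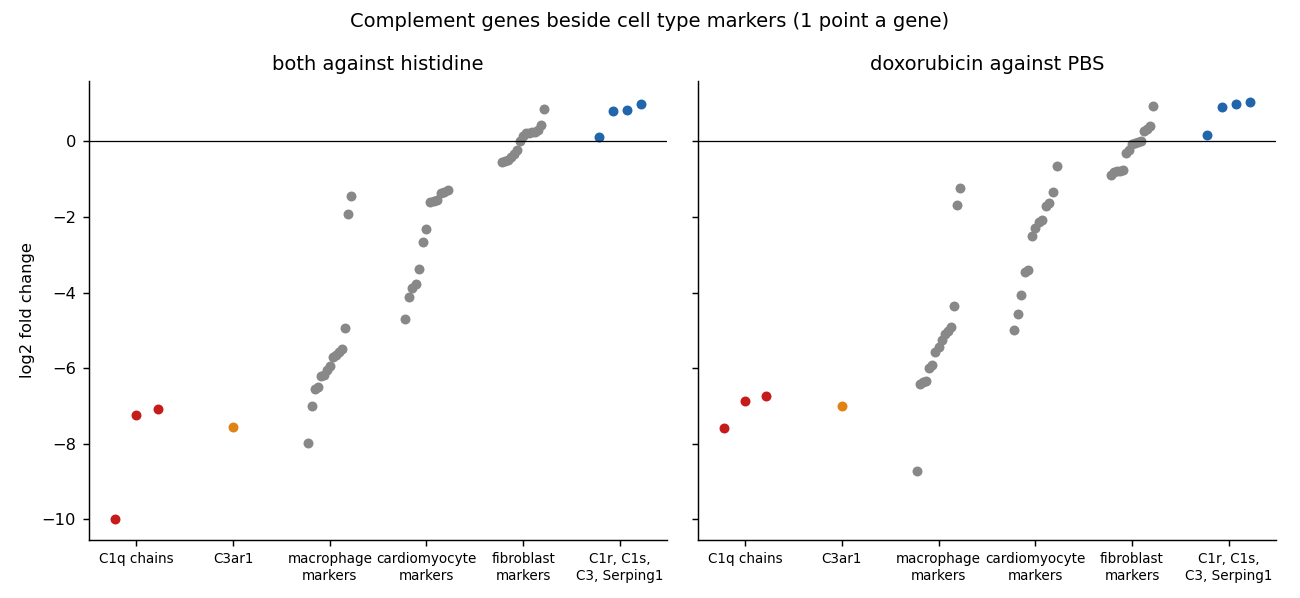
Log2 fold changes of the complement genes and of macrophage, cardiomyocyte and fibroblast markers, 1 point a gene, in the 2 comparisons with and without doxorubicin. The C1q chains and C3ar1 lie at the low end of the macrophage markers, whose medians are -5.95 in both against histidine and -5.45 in doxorubicin against PBS, and C1r, C1s and C3 lie near or above the top of the fibroblast markers, whose medians are 0.16 in both against histidine and -0.08 in doxorubicin against PBS.

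Levels of C3, C1s, C1r and Serping1 varied within groups by replicate number. C3 and C1s were highest in replicate 3 of all 4 groups, a pattern held by 246 of 15449 genes (1.59%). C3 in replicate 3 was 1.20 times the median of the other 4 libraries in both, 1.12 times in doxorubicin, 2.27 times in histidine and 1.72 times in PBS. C1r was highest there in 3 groups and Serping1 in histidine and PBS. C3ar1 was lowest in replicate 3 of both, histidine and PBS. C1qa was highest in replicate 3 in PBS, at 112 CPM against 88.5 to 101 CPM in the others, but lowest there in both and doxorubicin. The labels say nothing of what a shared replicate number stands for.

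**Figure D4:**
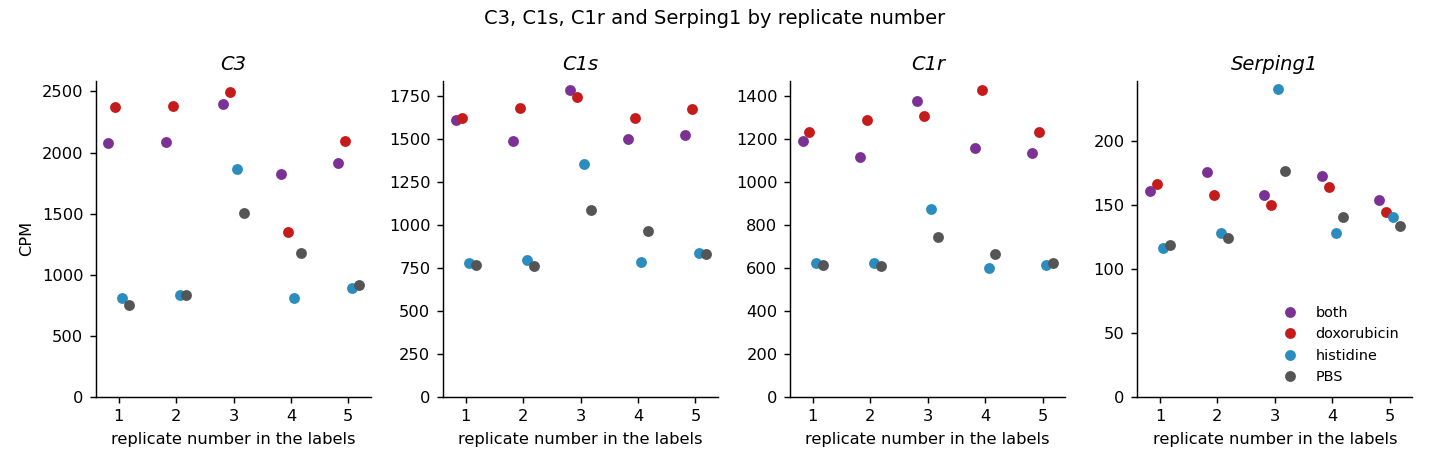
CPM of C3, C1s, C1r and Serping1 in each library, by the replicate number of the labels, with 1 colour for each of the groups both, doxorubicin, histidine and PBS. In histidine, replicate 3 stands above the other 4 libraries for all 4 genes, and C3 is highest in replicate 3 in every group.

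The other complement genes were counted by role. Of 47 listed, 30 were measured; 7 rose and 17 fell in both against histidine and 7 rose and 16 fell in doxorubicin against PBS, with a median log2 change of -0.45 in each, against 0.01 over all genes in both against histidine and 0.05 in doxorubicin against PBS. Of all genes tested, 19.9% rose and 20.3% fell in both against histidine, and 21.7% rose and 21.5% fell in doxorubicin against PBS, so the share of risers in the list was near that of all genes.

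All 6 measured receptors fell in both comparisons. The integrin genes Itgam and Itgax encode the alpha chains of complement receptors 3 and 4 and Itgb2 their shared beta chain. Itgam had 2.28 ± 0.453 CPM in both against 141 ± 20.1 in histidine, and 1.79 ± 0.839 in doxorubicin against 148 ± 8.65 in PBS, a log2 change of -6.37 ± 0.26 in doxorubicin against PBS (adjusted p = 2.19e-13). Itgb2 changed by -5.22 ± 0.19 and Itgax by -4.76 ± 0.14 in doxorubicin against PBS. Cd93, once described as a C1q receptor, fell by 3.05 ± 0.18 on the log2 scale (adjusted p = 5.59e-11). Itgam is also on the macrophage marker list.

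Both measured genes of the alternative pathway fell. Cfd, the factor D protease that cleaves factor B, had 0.148 ± 0.0789 CPM in both against 8.04 ± 1.21 in histidine, and 0.118 ± 0.142 CPM in doxorubicin against 8.94 ± 1.12 in PBS. Its log2 change was -6.25 ± 0.54 in doxorubicin against PBS (adjusted p = 9.99e-09), with -7.30 without doxorubicin replicate 5 and -5.46 without doxorubicin replicates 3 and 4. Cfp, properdin, which stabilises the C3 convertase, changed by -3.20 ± 0.16 (adjusted p = 3.55e-12). Cfb was not analysed here.

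Among 9 measured genes of classical and lectin recognition and their proteases, 1 rose and 4 fell in each comparison. Fcna, a ficolin that recognises sugars, changed by -5.98 ± 0.59 in doxorubicin against PBS (adjusted p = 8.24e-08; -6.96 without doxorubicin replicate 2). Smaller falls were those of C2, at -0.59 ± 0.14 (adjusted p = 0.00265), of the scavenger collectin Colec12, at -0.53 ± 0.07 (adjusted p = 7.13e-06), and of C4a, at -0.75 ± 0.16 (adjusted p = 0.000582). C2 and C4 are the substrates of C1s. C4a and C4b are near-identical copies, so how reads were split between them is uncertain. C1rl, a C1r-like protease gene named after its values were seen, was the riser, at 0.46 ± 0.12 (adjusted p = 0.00456). In both against histidine the changes were -5.34 for Fcna, -0.75 for C2, -0.66 for Colec12, -0.57 for C4a and 0.51 for C1rl.

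Of the terminal pathway 3 of 7 genes were measured. C6, a component of the membrane attack complex, had 22.4 ± 3.61 CPM in both against 12.8 ± 2.23 in histidine and 18.3 ± 3.14 CPM in doxorubicin against 12.6 ± 1.36 in PBS, a rise of 0.54 ± 0.14 in doxorubicin against PBS (adjusted p = 0.00378). C5 rose at a trace level, with 264 reads in both against 7 in histidine and 248 reads in doxorubicin against 17 in PBS. C8g was lower by 0.33 in both against histidine with an adjusted p of 0.0484 that passed the threshold in only 2 of the 10 fits with 1 library left out, and had -0.26 ± 0.13 in doxorubicin against PBS (adjusted p = 0.121).

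Among 10 measured regulators of complement, 4 rose and 4 fell in each comparison. Thbd, thrombomodulin, changed by -1.75 ± 0.13 in doxorubicin against PBS (adjusted p = 1.74e-09) and the protease inhibitor A2m by -0.99 ± 0.15 (adjusted p = 2.39e-05). Clu, clusterin, which blocks the membrane attack complex, had 493 ± 13.3 CPM in both against 255 ± 25.9 in histidine and 466 ± 49.9 CPM in doxorubicin against 258 ± 18.8 in PBS, and rose by 0.85 ± 0.08 in doxorubicin against PBS (adjusted p = 3.2e-08).

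Further genes of this group were named after their values were seen. Cd55, which breaks up the C3 convertase, rose by 1.93 ± 0.30 in doxorubicin against PBS (adjusted p = 2.68e-05) and by 1.28 ± 0.29 in both against histidine (adjusted p = 0.00157). Cd59, an inhibitor of the membrane attack complex, fell by 0.36 in doxorubicin against PBS (adjusted p = 0.00367) and by 0.29 in both against histidine (adjusted p = 0.0159; 0.0629 without the 4 libraries numbered 3). Susd4 and Csmd1 rose at trace levels: Susd4 had 245 reads in both against 15 in histidine and 258 in doxorubicin against 17 in PBS, and Csmd1 had 251 reads in both against 26 in histidine and 153 in doxorubicin against 0 in PBS.

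**Figure D5:**
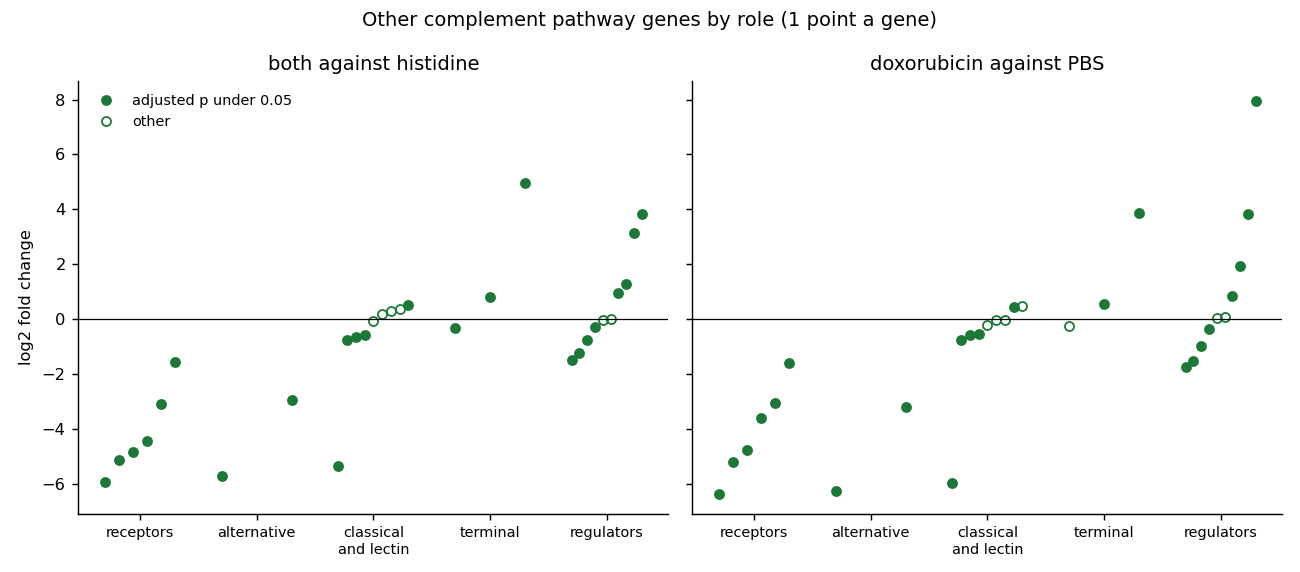
Log2 fold changes of 30 other complement genes by role, 1 point a gene, filled where the adjusted p was under 0.05. The 6 receptors and both alternative pathway genes lie below 0 in each comparison, whereas the regulators lie on both sides, with 4 higher and 4 lower.

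Of 16 transcription factors and cytokine receptors known to act on these genes, 2 rose and 4 fell in both against histidine and 3 rose and 3 fell in doxorubicin against PBS. Over all genes tested 40.2% passed in both against histidine and 43.2% in doxorubicin against PBS, so these counts were near the share of all genes. Spi1, which encodes the macrophage factor PU.1, had 0.465 ± 0.113 CPM in both against 45.6 ± 4.99 in histidine, and 0.872 ± 0.434 CPM in doxorubicin against 43.7 ± 2.45 in PBS. Its log2 change was -6.61 ± 0.27 in both against histidine (adjusted p = 1.96e-13) and -5.63 ± 0.25 in doxorubicin against PBS (adjusted p = 8.34e-13). The interferon regulatory factor gene Irf8 changed by -1.18 ± 0.08 in both against histidine and by -1.25 ± 0.08 in doxorubicin against PBS.

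Il1r1, the interleukin-1 receptor, rose by 1.15 ± 0.09 in both against histidine (adjusted p = 1.85e-09) and by 1.08 ± 0.09 in doxorubicin against PBS (adjusted p = 4.13e-09). It had 434 ± 26.8 CPM in both against 196 ± 22.6 in histidine and 414 ± 52.6 CPM in doxorubicin against 196 ± 8.70 in PBS. Calls of the smaller rises were fragile. Irf1 rose by 0.29 ± 0.10 in doxorubicin against PBS (adjusted p = 0.0234), a call lost on leaving out any of PBS replicates 1 and 4 and doxorubicin replicates 3 and 5, with adjusted p-values from 0.0575 to 0.0664. Cebpb rose by 0.78 ± 0.30 there (adjusted p = 0.0422) with 220 ± 167 CPM in doxorubicin against 128 ± 21.6 in PBS. Without doxorubicin replicate 4 the Cebpb difference was 0.18 (adjusted p = 0.339). The call was also lost without PBS replicate 1, 2, 4 or 5 and with a replicate block (0.65, adjusted p = 0.0589). In both against histidine Cebpb had 0.01 ± 0.30 (adjusted p = 0.982). The Stat3 rise in both against histidine, 0.19 ± 0.07 (adjusted p = 0.0429), was lost without any 1 library other than histidine replicate 3, with adjusted p-values from 0.0548 to 0.0967. In doxorubicin against PBS Stat3 had 0.05 ± 0.07 (adjusted p = 0.635), and 0.12 without doxorubicin replicate 4 (adjusted p = 0.0494), which passes. Ifngr2, an interferon-gamma receptor chain, fell in both against histidine by 0.40 on the log2 scale (adjusted p = 0.00128) and had -0.16 ± 0.09 in doxorubicin against PBS (adjusted p = 0.163). Without doxorubicin replicate 4 the Ifngr2 difference in doxorubicin against PBS was -0.27 (adjusted p = 0.000686), which passes.

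Genes with the most similar course over the 20 libraries were found by the root mean square difference of log2 CPM centred on each gene's mean, among 8117 genes with a symbol and at least 5 CPM on average. For the mean of the 3 C1q chains they were Slamf9 (0.611), Aif1 (0.625), Ncf4 (0.678), Pld4 (0.695) and Fcrl2 (0.706), and C3ar1 itself was at 0.713. For C1r the closest gene was C1s, at 0.0926, followed outside the complement genes by Wdr6 (0.113), Klhl26 (0.121), Aen (0.123), Smpd1 (0.131) and Acaa2 (0.132). For C1s they were Jak2 (0.135), Prelp (0.140), Alcam (0.149), Id1 (0.150) and Wdr6 (0.157).

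The course of C3 was most like that of Svep1 (0.180), Tgfbr3 (0.204), Nav3 (0.206) and Ptgs1 (0.213), with C1s at 0.216. That of Serping1 was most like Tmem178a (0.117), Plpp3 (0.126), Fbxl5 (0.144), Cxadr (0.151) and Osmr (0.152), and stood farther from C1s, at 0.371, and C1r, at 0.404. The libraries share their drug treatment, so the drug's change enters every one of these distances.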

How the data were processed

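The deposited table held read counts per gene, whole numbers that were not normalised, and FPKM values, both per the file headers, with gene coordinates on build mRatBN7.2. Groups and replicate numbers were read from the sample titles, with 0 unmatched columns. The labels' protocols describe oligo(dT) capture and random hexamer priming, with no step that marks strand. The submitters' processing notes name Trimmomatic and mRatBN7.2; the aligner and counter are not stated there or in the labels. FPKM were scaled to gene length and library reads by the authors, per the file headers. Reads per FPKM tracked the library totals with a largest gap of 0.0094 (log2) among 10528 genes having 200 or more reads.

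Symbols for 10475 genes came from RefSeq protein accessions, KEGG names and protein names. Counts were filtered with filterByExpr, which kept 15449 genes and all 8 complement genes, and scaled by TMM. The test was edgeR 4.0.16's quasi-likelihood F test in 1 fit of 4 groups (R 4.3.3), with p-values adjusted by Benjamini-Hochberg and a threshold of 0.05; the SE is the log2 change over the square root of F. DESeq2 1.42.0, limma 3.58.1 on log2(FPKM + 0.1) and log2(FPKM + 1), other scalings, a replicate block and left-out libraries were alternatives. Intervals of read ratios are exact, at 95%, and cover counting error only. Duplicate libraries were looked for with a chi-square over genes: its value per degree of freedom was 34.5 to 645 in the 40 within-group pairs, so none was counted as a duplicate.

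The fit was tested on simulated counts. Every group was drawn from the PBS means, and 200 genes expressed in PBS were changed in the first-named group, up or down. In the real doxorubicin against PBS comparison 43.2% of genes passed, and the C1q genes and C3ar1 had few reads in the drug groups. Recovery under such wide change or at such low counts was not simulated. For doxorubicin against PBS (15199 genes), it found 46.3% of changes of 1.5-fold, 79.1% of 2-fold and 100% of 4-fold, and made 10 false calls. For histidine against PBS (15189 genes), it found 52.2%, 77.6% and 98.5% at these sizes.

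The genes, lists and tests were chosen with earlier results of these data known. Other complement genes were named where they had up to the 4 smallest p-values of their role in doxorubicin against PBS, and regulators up to 6; genes named for another reason are said to be. Some genes that these rules took are not reported here. Figures were drawn with matplotlib.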

Additional observations from a re-analysis of the deposited data

Results flagged for a closer look

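Among 32 sets of 5 libraries (8 genes in 4 groups), 5 held a library whose distance to its nearest neighbour exceeded Dixon's 95% critical value of 0.71 of the group's range; chance gives about 1 in 20. In each it was the highest library, and in each it was replicate 3. In histidine, replicate 3 stood at 1354 CPM for C1s (others 777 to 837), 875 CPM for C1r (598 to 625), 1861 CPM for C3 (808 to 894) and 240.8 CPM for Serping1 (117 to 140). In both, replicate 3 stood at 1378 CPM for C1r (others 1118 to 1192). The 4 genes of histidine replicate 3 come from 1 library and are not separate observations.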

How the results depend on the processing

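The counts of complement genes, 3 higher and 4 lower in doxorubicin against PBS and in both against histidine, were the same under every alternative run, apart from those in which Serping1 made 4 higher. Over the 8 genes and 5 comparisons, 828 of 831 alternative values kept their direction where called and their side of the threshold, 0 reversed, and the 3 others were those of Serping1 described above. Where no gene passed, other settings gave a few. In histidine against PBS, DESeq2 called 5, limma on log2(FPKM + 1) called 1, the fit without doxorubicin replicates 3 and 4 called 1, and leaving out 1 library gave 0 to 1. In both against doxorubicin, DESeq2 called 22, the fit without doxorubicin replicates 3 and 4 called 2, and leaving out 1 library gave 0 to 6. In the interaction, DESeq2 called 17 and leaving out 1 library gave 0 to 2. The cause was not tested.

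The labels do not say what a replicate number stands for, and the numbers were not taken as pairs: deviations of same-numbered libraries correlated at -0.10 to 0.27 over 30 pairs, with 4 over 0.1. As a hint from the data, 10 of 30 pairs were best matched by number, among them all 5 of histidine with doxorubicin. With a replicate block, 6579 genes passed in doxorubicin against PBS, against 6673 without it, and 6310 in both against histidine, against 6206. In the 3 other comparisons 0 passed, and none of the 8 complement genes changed its call. Of the other complement genes and regulators named, Cebpb lost its call in doxorubicin against PBS and C8g in both against histidine (adjusted p = 0.0568). Irf1 gained a call in both against histidine (adjusted p = 0.0353, against 0.0663 without the block). Osmr gained a call in doxorubicin against PBS (adjusted p = 0.0342, against 0.071).

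C1qb rests on 12 reads in both and 76 in doxorubicin, so differences between these groups are poorly resolved.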
